A study of Mus musculus with 18 samples.

Results

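The 9 genes described here, Mesp1, Mesp2, Ripply1, Ripply2, Tbx18, Uncx, Epha4, Efnb2 and Cer1, mark the forming somite boundary and the rostral and caudal compartments of each somite in the vertebrate embryo. They were chosen by name and found by Ensembl identifier among the 53465 genes of the count table, and all 9 were present. RNA-seq had been made from mouse embryos at E9, with 20 to 24 somites, that were either controls or DKO embryos, in which Meis1 and Meis2 had been conditionally deleted with Delta1Cre. Each of 9 embryos gave an anterior library, from the somite-bearing axis in front of the newly formed somites, and a posterior library, from the axial bud with the 10 to 12 newest somites. The 4 groups were thus anterior control and posterior control (5 embryos each) and anterior DKO and posterior DKO (4 embryos each). Strain, and whether the controls carried Cre or floxed alleles, are not given in the sources used here. Nor is the set of cells in which the Cre had acted.

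Somites form when cells leaving the presomitic mesoderm, a tissue kept immature by Wnt and FGF signals at the tail, pass a front where Notch oscillations stop and Tbx6 switches on Mesp2. Mesp2, a bHLH transcription factor, sets the next segment border and gives the rostral compartment of the future somite its identity. Ripply1 and Ripply2 then close the Mesp2 stripe by recruiting Tle corepressors to T-box factors, and the Eph receptor Epha4 and the ephrin Efnb2 meet across the new border. In formed somites, Tbx18 maintains the rostral compartment and Uncx the caudal one, from which the pedicles and the proximal ribs arise. Cer1, a secreted antagonist of Nodal and BMP ligands, marks newly forming somites. Meis1 and Meis2 encode TALE homeodomain factors that act with Hox and Pbx proteins, and the comparison of DKO with control embryos was made to find their targets in anterior-posterior patterning of the skeleton.

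The start regions of the Mesp pair and of Tbx18 and Uncx, the markers of opposite somite compartments, are shown. They hold short matches to the binding cores of 2 factor families named above, the T-box factors that act on the Mesp genes and the MEIS factors that were deleted. The Efnb2 window, not printed, also holds the MEIS core. Each window runs from 250 bases before to 50 bases after the RefSeq start, read 5′ to 3′ on the gene's own strand of GRCm38.p6. The Mesp1 window (chr7:79793541-79793840, minus strand) and the Mesp2 window (chr7:79810477-79810776, plus strand) have in capitals the T-box core ACACCT or its reverse complement. The Tbx18 window (chr9:87731211-87731510, minus strand) and the Uncx window (chr5:139543648-139543947, plus strand) have in capitals the MEIS core TGACAG.
Mesp1: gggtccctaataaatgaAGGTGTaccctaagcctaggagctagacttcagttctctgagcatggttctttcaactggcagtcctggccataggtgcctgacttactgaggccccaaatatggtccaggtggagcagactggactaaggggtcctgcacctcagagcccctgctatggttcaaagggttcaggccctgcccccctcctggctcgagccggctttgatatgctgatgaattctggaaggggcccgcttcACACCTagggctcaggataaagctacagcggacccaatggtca
Mesp2: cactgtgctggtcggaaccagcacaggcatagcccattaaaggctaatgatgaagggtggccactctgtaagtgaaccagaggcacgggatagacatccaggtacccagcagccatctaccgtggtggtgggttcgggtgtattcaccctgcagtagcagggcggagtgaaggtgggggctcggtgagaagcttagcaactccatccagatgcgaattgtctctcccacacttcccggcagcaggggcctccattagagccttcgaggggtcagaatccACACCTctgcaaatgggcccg
Tbx18: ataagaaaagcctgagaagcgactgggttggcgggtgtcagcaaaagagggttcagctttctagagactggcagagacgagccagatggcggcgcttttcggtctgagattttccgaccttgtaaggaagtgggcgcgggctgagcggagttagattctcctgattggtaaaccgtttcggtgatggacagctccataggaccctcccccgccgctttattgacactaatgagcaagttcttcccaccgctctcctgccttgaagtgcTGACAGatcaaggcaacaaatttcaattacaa
Uncx: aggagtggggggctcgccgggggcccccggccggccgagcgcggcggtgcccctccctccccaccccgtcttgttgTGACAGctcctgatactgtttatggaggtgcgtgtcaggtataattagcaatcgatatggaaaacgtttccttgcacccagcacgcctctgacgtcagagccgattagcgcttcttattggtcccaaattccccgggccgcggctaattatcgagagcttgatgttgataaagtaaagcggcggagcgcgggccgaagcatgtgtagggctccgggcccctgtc
In positions counted from the start base as 1, with the base before it as -1, the T-box core began at -233 and 8 in Mesp1 and at 30 in Mesp2, and in none of the other 7 windows. It occurred, on either strand, in 13.7% of 32817 RefSeq windows of the same length. The MEIS core began at 19 in Tbx18, at -174 in Uncx and at -164 and -18 in Efnb2, against 19.2% of all windows. The RBPJ core TGGGAA, read by the Notch effector, was found in Tbx18 at -10 and Epha4 at -200 (25.6% of windows), the HOX-PBX sequence TGATTNAT in none of the 9 (3.22%), and the E-box CANNTG in all but Epha4 (72.3%). One E-box match, in Efnb2, shared bases with a MEIS core match. These are matches of letters, and no binding was measured here.

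Mesp1 (ENSMUSG00000030544, chr7:79792241-79793788, minus strand) and Mesp2 (ENSMUSG00000030543, chr7:79810727-79813439, plus strand) lie divergently, 16938 bases apart. Ripply2 (ENSMUSG00000047897, chr9:87015537-87019917) lies 682882 bases from Tbx18 (ENSMUSG00000032419, chr9:87702800-87731260). The others are Ripply1 (ENSMUSG00000072945, chrX:139779549-139782353), Uncx (ENSMUSG00000029546, chr5:139543494-139548179), Epha4 (ENSMUSG00000026235, chr1:77367185-77515088), Efnb2 (ENSMUSG00000001300, chr8:8617434-8661242) and Cer1 (ENSMUSG00000038192, chr4:82881751-82885148), all in GRCm38. Exons of Tbx18 overlap the opposite-strand gene D030062O11Rik by 970 bases. That gene held 1.15 to 16.8 counts per library against 57.7 to 364 for Tbx18, and whether strand was used in counting is not given in the sources used here.

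Libraries held 12.7 to 38.2 megacounts assigned to genes, so that 3 counts, taken here as the smallest reliable number, corresponded to 0.079 to 0.233 CPM (counts of a gene per megacount of its library, scaled with TMM factors over all 18 libraries). The deleted genes were measured lower but present: Meis1 averaged 125 ± 8.64 CPM in anterior controls and 102 ± 9.50 in anterior DKO libraries, and 84.4 ± 15.2 and 57.5 ± 11.8 in the posterior (SD, n = 5 and 4). Meis2 averaged 190 ± 10.0 and 143 ± 11.3 in the anterior and 143 ± 16.7 and 99.4 ± 11.3 in the posterior. The deleted exons are not given in the sources used here, so the gene totals are an incomplete check of the genotype. Control embryo 1 was labelled female, but both its libraries carried Y-linked reads and almost no Xist. Axial bud markers (T, Tbx6, Msgn1, Cdx4, Wnt3a, Fgf8) summed to 17.6 to 20.2 CPM in anterior and 212 to 384 CPM in posterior controls. In DKO libraries they summed to 19.0 to 23.1 and 241 to 394 CPM. In whole pieces of embryo, fewer cells of a type and less RNA per cell cannot be told apart.

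**Figure D1:**
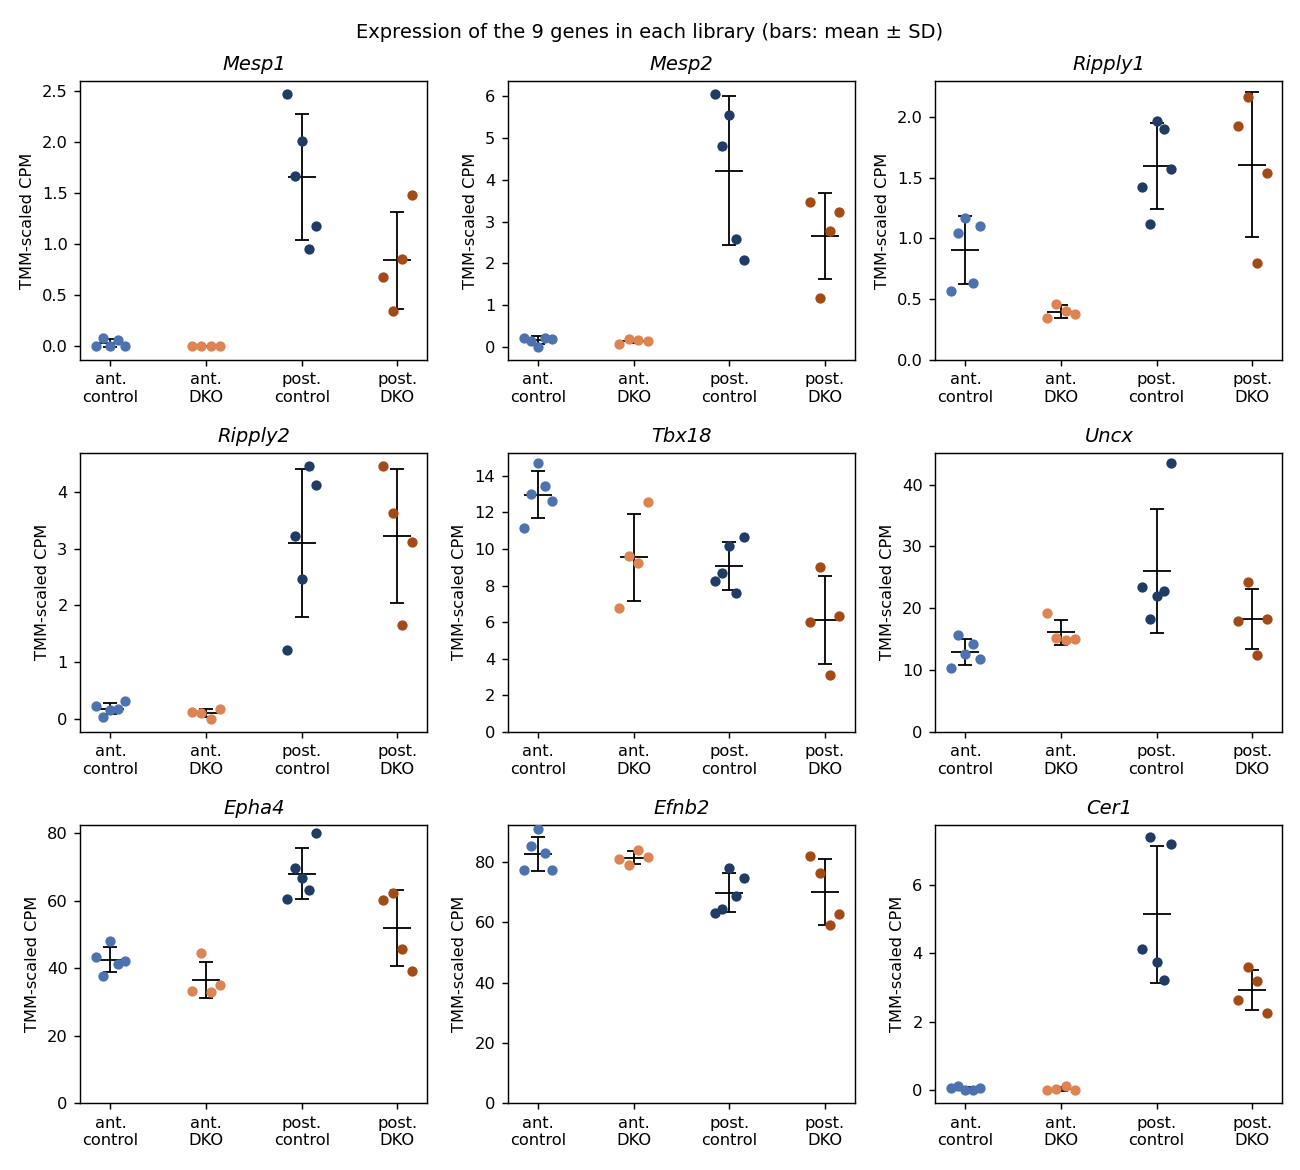
Expression of each gene in the 18 libraries, in TMM-scaled CPM on a linear axis from 0, 1 panel per gene and 1 point per library, with bars for the mean and SD of each group. Mesp1, Mesp2, Ripply2 and Cer1 are near 0 in all anterior libraries, while Uncx stands high in posterior control 5 (43.5 CPM).

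Per kilobase of exon, Efnb2 was the highest of the 9 in all 4 groups, at 12.1 CPM per kb in anterior controls, followed there by Epha4 (5.29), Uncx (4.10), Tbx18 (2.75) and Ripply1 (1.11). Of these neighbours, only Epha4 and Uncx overlapped in range over the 5 control embryos. The other 4 genes were below 0.25 CPM per kb in the anterior controls. In posterior controls Efnb2 (10.2), Epha4 (8.45) and Uncx (8.29) again led, and Ripply2 (4.21), Cer1 (2.95), Mesp2 (2.17), Ripply1 (1.97), Tbx18 (1.92) and Mesp1 (1.30) followed. Every neighbouring pair in that posterior order overlapped in range.

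Between the regions, 4 of the genes were posterior genes with almost no anterior signal. Mesp1 held 219 counts over the 5 posterior control libraries and 3 over the anterior ones, a ratio of library-scaled counts of 51.8 (95% exact interval 17.5 to 253, which like the others here covers counting error only). In the DKO embryos the counts were 73 and 0, at least 26.2-fold higher in the posterior when 3 counts are taken as the floor over the anterior group. Mesp2 held 560 counts in posterior controls and 15 in anterior ones, a ratio of 26.5 (15.9 to 47.6), and its ratio in DKO embryos was 18.6 (10.9 to 34.5).

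Ripply2, which closes the Mesp2 stripe together with Ripply1, was 17.2 times higher in the posterior of controls (10.3 to 31.1) and 30.8 times higher in that of DKO embryos (16.97 to 62.3). Cer1 held 608 posterior and 5 anterior counts in controls, a ratio of 86.2 (36.8 to 267, an interval that overlaps that of Mesp1), and had a ratio of 99.6 (33.7 to 486) in DKO embryos. All 4 genes were higher in the posterior library of every one of the 9 embryos. They passed the filter on low counts only through the posterior libraries, where they are high.

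Ripply1 differed from its paralogue in keeping anterior expression. In anterior controls 1 to 5 it measured 0.566, 1.05, 1.17, 0.632 and 1.10 CPM, and in posterior controls 1.42, 1.12, 1.97, 1.90 and 1.57 CPM. The ranges met (1.12 posterior against 1.17 anterior), yet the posterior library was the higher in 9 of 9 embryos. The posterior level rose by 0.82 on the log2 scale in controls (SE 0.265, adjusted p = 0.0377, edgeR's quasi-likelihood test with Benjamini-Hochberg adjustment, as for every adjusted p on single genes below) and by 2.04 in DKO embryos (SE 0.340, adjusted p = 0.00197). The control value did not hold without a filter on low counts (adjusted p = 0.0817) or without control 1 (0.111), 3 (0.0822), 4 (0.174) or 5 (0.0622).

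The polarity genes of formed somites were expressed in both pieces. Uncx, the caudal homeobox gene, measured 10.2, 15.6, 12.5, 14.2 and 11.8 CPM in anterior controls 1 to 5 and 23.4, 18.3, 22.0, 22.8 and 43.5 CPM in posterior controls. The groups did not overlap, and Uncx rose by 1.002 (log2, SE 0.212, adjusted p = 0.00364), or by 0.72 without control 5 (adjusted p = 0.00336). Tbx18, the rostral T-box gene, went the other way, with 11.2, 13, 14.7, 13.4 and 12.6 CPM in anterior controls and 8.22, 8.71, 10.2, 7.58 and 10.7 CPM in posterior ones. It fell by 0.52 (log2, SE 0.115, adjusted p = 0.00469), again with no overlap, and was lower in the posterior library of all 9 embryos; in a single fit of all 18 libraries the adjusted p was 0.0713.

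Epha4 was higher in the posterior, at 60.5, 69.7, 66.8, 63.2 and 80.2 CPM in posterior controls against 43.5, 37.9, 48.2, 41.3 and 42.3 CPM in anterior ones. Its posterior level rose by 0.68 (log2, SE 0.0814, adjusted p = 5.3e-05). Efnb2 measured 63.0, 64.5, 78.0, 68.7 and 74.7 CPM in posterior controls and 77.4, 85.2, 90.8, 82.9 and 77.3 CPM in anterior ones, ranges that overlapped, and fell by 0.25 (log2, SE 0.0686, adjusted p = 0.0189). That call was lost without control 2 (adjusted p = 0.0809) or control 4 (0.0787). Receptor and ligand thus had opposite slopes along the axis of controls.

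Counted together, 7 of the 9 genes rose and 2 fell from anterior to posterior in controls, where 25.4% of 15294 genes tested were called, 12.1% higher and 13.3% lower. The groups did not overlap for 7 of the 9, against 20.1% of all genes. Mesp1, Mesp2, Ripply2 and Cer1 entered through the posterior alone, where they are high. Their calls were kept in every alternative run that tested them. Because the filter selected them by that group, their calls and lack of overlap cannot be read against the share of all genes. Of the other 5 genes, 3 rose and 2 fell, and the groups did not overlap for 3 (Uncx, Tbx18 and Epha4). In DKO embryos 8 genes could be tested (Mesp1 had too few counts), 5 rose and none fell, where 18.5% of 15777 genes were called, 8.76% higher and 9.7% lower. These were Mesp2, Ripply1, Ripply2, Cer1 and Epha4, the last at 0.52 (log2, SE 0.154, adjusted p = 0.0419), a call lost without DKO 1 (adjusted p = 0.256), 2 (0.0507) or 3 (0.0957). Without Mesp2, Ripply2 and Cer1, which again entered through the posterior, the count was 2 of 5 (Ripply1 and Epha4).

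In DKO embryos the slopes of Tbx18 (-0.63 log2, SE 0.288, adjusted p = 0.18), Efnb2 (-0.21, SE 0.0994, 0.19, or -0.12 without DKO 3) and Uncx (0.18, SE 0.183, 0.575) did not pass. Whether the slopes differed between genotypes was tested directly as the interaction of region and genotype. This fit, like those between regions, did not pair the 2 libraries of an embryo. Of 16428 genes, 0% were called by edgeR and 10 by DESeq2, and 3.45% had an unadjusted p below 0.05 in edgeR. With the embryo as a replicate block, 860 genes had such a p. None of the 9 genes was called. The 2 with an unadjusted p below 0.05 were Ripply1, whose posterior excess was 1.21 larger in DKO embryos (log2, SE 0.424, adjusted p = 0.999), and Uncx, whose posterior excess was smaller, at -0.82 (SE 0.307, adjusted p = 0.999), or -0.54 without control 5.

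**Figure D2:**
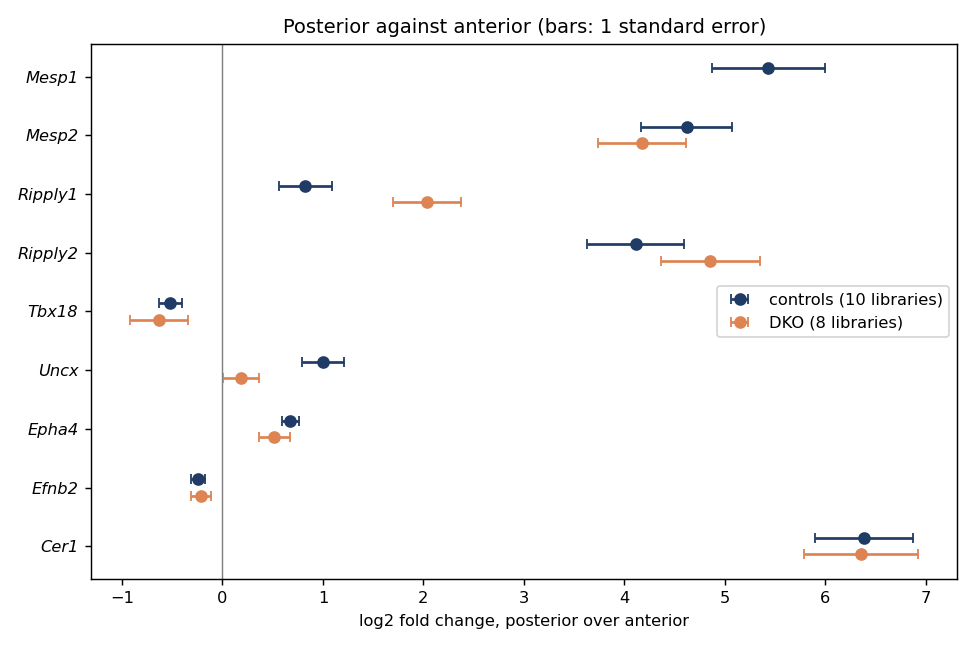
Posterior minus anterior difference of each gene on the log2 scale (horizontal axis), with bars of 1 standard error, in controls and in DKO embryos. The control values run from -0.52 for Tbx18 to 6.39 for Cer1, and the DKO and control points lie farthest apart, relative to their bars, for Ripply1 and Uncx.

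The effect of deleting Meis1 and Meis2 was looked at within each region. In the anterior, 5 of the 9 genes had enough counts to be tested, none was called, and 6 of 15238 genes (0.0394%) were called in all. In the posterior all 9 were tested, none was called, and 2 of 15936 genes (0.0126%) were called. At an unadjusted p below 0.05 stood 4 of the 5 in the anterior (1 higher, 3 lower) against 13% of all genes, 6.41% higher and 6.61% lower, and 4 of the 9 in the posterior (all lower) against 11%, 5.74% lower. Groups that did not overlap were found for 1 of the 5 in the anterior and for none of the 9 in the posterior, where 4.29% of all genes had them. The median log2 difference of the tested members was -0.22 in the anterior and -0.51 in the posterior, beside 0.00 and 0.01 over all genes. DESeq2 called 296 and 161 genes in the same comparisons, and none of the 5 and 9 tested there.

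Ripply1 had the largest DKO difference of the 5 genes tested in the anterior. Anterior DKO embryos 1 to 4 measured 0.343, 0.463, 0.404 and 0.380 CPM, all below the lowest anterior control (0.566 CPM), and these values rest on 7 to 12 counts in the DKO and 10 to 27 in the control libraries. Non-overlapping groups were found for 5.08% of all genes tested, 2.62% in this direction. The difference was -1.18 (log2, SE 0.308, adjusted p = 0.164), and over 14 alternative settings the adjusted p lay between 0.113 and 0.524. In the posterior, Ripply1 showed no such gap, at 1.93, 2.16, 0.8001 and 1.53 CPM in DKO embryos 1 to 4 and a difference of 0.03 (SE 0.293, adjusted p = 0.979).

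Tbx18 was measured lower in both regions. Anterior DKO libraries 1 to 4 had 6.74, 9.62, 9.23 and 12.6 CPM, 3 of the 4 below every anterior control, for a difference of -0.44 (log2, SE 0.157, adjusted p = 0.273). Posterior DKO libraries had 5.98, 9.03, 3.09 and 6.34 CPM, for a difference of -0.56 (SE 0.242, adjusted p = 0.451), or -0.34 without DKO 3. DKO 3 was the lowest posterior library and DKO 2 lay inside the control range. Axial bud markers summed to 394 CPM in posterior DKO 3 and 241 CPM in posterior DKO 2. Posterior control 2, with a sum of 384 CPM, held 8.71 CPM of Tbx18. The part of the dissected piece's makeup in these values was not tested. Tbx18 is also known from the proepicardium and the urogenital ridge. None of the 5 nephric markers (Pax2, Pax8, Lhx1, Osr1, Wt1) was called in either region, and their summed level was 9.25 to 23.9 CPM in anterior controls and 4.17 to 15.3 in anterior DKO libraries, and 63.5 to 78.0 and 27.4 to 49.4 CPM in the posterior. Sinus venosus and proepicardium markers (Tcf21, Wt1, Shox2, Hcn4, Nkx2-5; 4 of 5 tested, none called, Nkx2-5 at or near 0 throughout) summed to 10.1 to 17.8 and 5.86 to 9.21 CPM in the anterior and 21.5 to 30.5 and 10.4 to 19.6 CPM in the posterior. Wt1 is in both lists, so the sums share a gene. Its posterior means were 16.4 CPM in controls and 4.49 in DKO libraries. Posterior means of Hcn4 (5.37 and 2.93) and Shox2 (0.676 and 0.583) were also lower in DKO libraries, and that of Tcf21 was higher (4.87 and 5.65). The part of these markers in the Tbx18 values was not tested.

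Uncx had differences of opposite sign in the 2 regions. In anterior DKO libraries it measured 19.1, 15.2, 14.8 and 15.02 CPM, with 1 anterior control (15.6 CPM) inside that range, a difference of 0.32 (log2, SE 0.130, adjusted p = 0.337), or 0.22 without DKO 1. In posterior DKO libraries it measured 17.96, 24.2, 12.4 and 18.2 CPM, a difference of -0.51 (SE 0.252, adjusted p = 0.478). Without control 5, the highest of all 18 libraries, the posterior difference was -0.25 (adjusted p = 0.691). Uncx is also expressed in the mesonephros, and the nephric marker sums given for Tbx18 stand beside this gene too.

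The boundary genes of the presomitic mesoderm could be compared only in the posterior. Mesp1 measured 2.48, 1.67, 2.02, 0.952 and 1.18 CPM in controls 1 to 5 and 0.681, 0.349, 0.853 and 1.48 CPM in DKO embryos 1 to 4, overlapping through DKO 4. The difference was -1.01 (log2, SE 0.418, adjusted p = 0.449). Mesp2 measured 6.06, 4.81, 5.54, 2.58 and 2.09 CPM in controls and 3.48, 1.19, 2.77 and 3.22 CPM in DKO embryos, so that the lower controls, 4 and 5, lay within the DKO range (-0.68, SE 0.373, adjusted p = 0.498). Without control 1, the highest library for both genes and the one against its sex label, the differences were -0.81 for Mesp1 and -0.51 for Mesp2. Without DKO 2, the lowest library for both, they were -0.74 and -0.42. Ripply2 measured 1.21, 3.22, 2.47, 4.45 and 4.12 CPM in controls and 4.46, 3.63, 1.65 and 3.12 CPM in DKO embryos, a difference of 0.08 (SE 0.367, adjusted p = 0.943).

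Cer1 measured 4.14, 7.38, 3.73, 3.23 and 7.19 CPM in posterior controls and 2.65, 3.59, 3.20 and 2.25 CPM in posterior DKO embryos. Only DKO 2 reached into the control range, and the difference was -0.80 (log2, SE 0.277, adjusted p = 0.41). Epha4 was at 60.3, 62.4, 45.8 and 39.2 CPM in posterior DKO embryos (-0.39, SE 0.132, adjusted p = 0.409) and at 33.4, 44.4, 32.9 and 35.2 CPM in anterior DKO embryos (-0.22, SE 0.0952, adjusted p = 0.355). In both regions DKO 2 alone lay inside the control range, and the other 3 lay below it.

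Efnb2 had the smallest DKO difference of the tested genes in both regions. It measured 81.0, 78.9, 84.0 and 81.6 CPM in anterior DKO embryos and 82.1, 76.4, 58.9 and 62.7 CPM in posterior ones. The DKO difference was -0.02 in the anterior (log2, SE 0.0503, adjusted p = 0.879) and 0.01 in the posterior (SE 0.102, adjusted p = 0.983). Efnb2 also marks arterial endothelium and Epha4 the neural tube. Of 6 endothelial markers (Cdh5, Pecam1, Kdr, Sox17, Gja4, Gja5), not all specific to arteries, none was called in either region. Kdr and Cdh5 had the highest levels among them in anterior controls (means of 86.9 and 58.3 CPM). The 6 summed to 195 to 226 (anterior control), 160 to 214 (anterior DKO), 138 to 216 (posterior control) and 122 to 188 CPM (posterior DKO). The 6 neural tube markers, none called, summed to 397 to 518, 509 to 569, 219 to 308 and 266 to 346 CPM in the same order. Their part in the 2 genes' values was not tested.

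**Figure D3:**
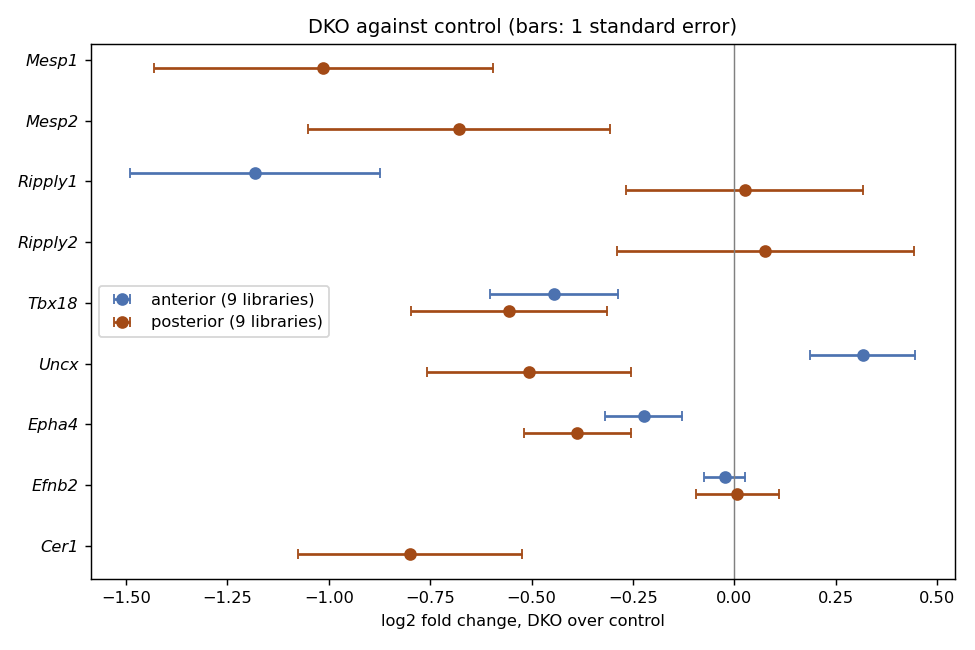
DKO minus control difference of each gene on the log2 scale (horizontal axis), with bars of 1 standard error, in the anterior and the posterior. Mesp1, Mesp2, Ripply2 and Cer1 have no anterior point because their counts were too low, and Ripply1 is the lowest anterior value at -1.18.

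The balance of caudal to rostral genes was described within each library, where sequencing depth cancels. The ratio of Uncx to Tbx18 counts was 0.919, 1.20, 0.852, 1.06 and 0.933 in anterior controls and 2.84, 1.58, 1.61 and 1.20 in anterior DKO embryos, with medians of 0.933 and 1.59. DKO 4 lay just inside the control range, whose upper end is control 2. In the posterior the ratio ran from 2.10 to 4.08 in controls and from 2.68 to 4.02 in DKO embryos, so that the DKO values lay inside the control range and controls 2 and 3 (2.10 and 2.16) below every DKO embryo. The ratio of Efnb2 to Epha4 was 0.925 to 1.17 in posterior controls and 1.22 to 1.60 in posterior DKO embryos, without overlap, and 1.78 to 2.25 and 1.78 to 2.55 in the anterior, with overlap. The other such ratio, Uncx to Epha4, overlapped in both regions, at 0.262 to 0.542 and 0.272 to 0.463 in the posterior and 0.235 to 0.413 and 0.343 to 0.573 in the anterior. Ripply1 over Ripply2 (0.347 to 1.17 and 0.432 to 0.596), Mesp2 over Mesp1 (1.78 to 2.87 and 2.17 to 5.11) and Mesp2 over Ripply2 (0.508 to 5 and 0.327 to 1.68) overlapped between the genotypes of the posterior. The ratios were looked at after the genes' own values were known and were not tested, and how many ratios of other genes fail to overlap was not computed.

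**Figure D4:**
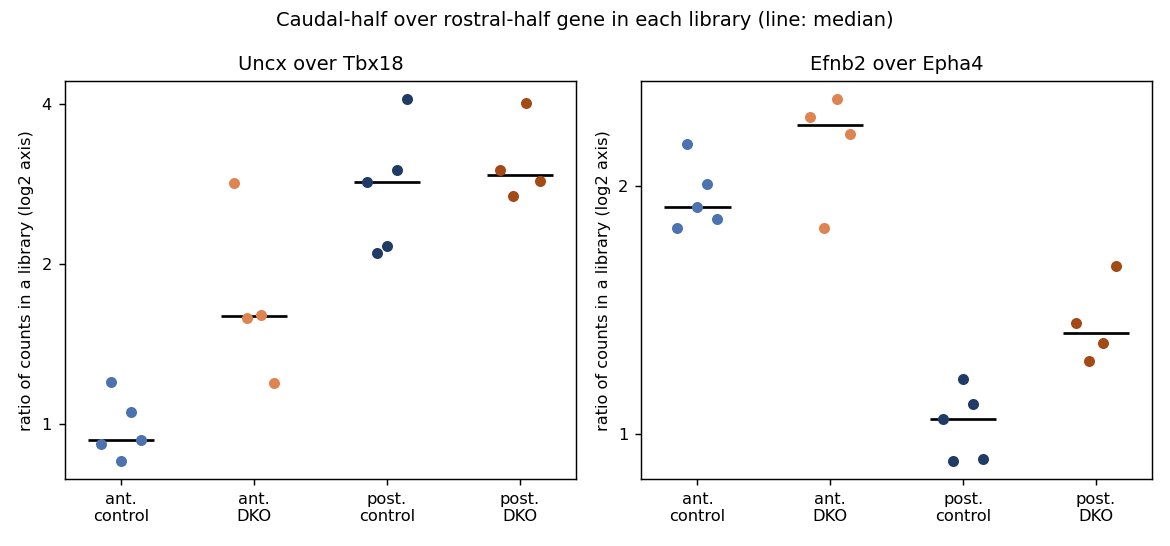
Within-library ratios of counts of a caudal over a rostral gene, on a log2-spaced vertical axis, with 1 point per library and a line at the median of each group. Anterior DKO embryos lie between 1.20 and 2.84 for Uncx over Tbx18, and posterior DKO embryos lie above all posterior controls for Efnb2 over Epha4.

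How the genes varied together over embryos was measured on log2 CPM for 36 pairs in the posterior and, for the 5 genes with enough anterior counts, 10 pairs in the anterior, each over 9 embryos. None of the 46 pairs passed an exact permutation test after Benjamini-Hochberg adjustment, and 7 had an unadjusted p below 0.05. The same share over other gene pairs was not computed, so that count has no background to be read against. The highest Pearson coefficient, though not the highest Spearman one, was that of Mesp1 with Mesp2 in the posterior (Pearson's r = 0.869, exact permutation p = 0.00287, adjusted p = 0.132; Spearman's rho = 0.767, adjusted p = 0.164). It was 0.61 without the 2 embryos farthest from the median of Mesp1, and 0.921 within controls and 0.797 within DKO embryos. Without DKO 1 it was 0.941 (adjusted p = 0.0365, exact permutation).

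Tbx18 and Uncx, the markers of opposite somite compartments, had a positive coefficient in the posterior (r = 0.799, exact permutation p = 0.0206, adjusted p = 0.196; rho = 0.817, exact p = 0.0108, adjusted p = 0.0991), with 0.651 left without the 2 farthest embryos. In the anterior their coefficient was negative (r = -0.579, exact permutation p = 0.106, adjusted p = 0.374), with -0.0341 left without the 2 farthest embryos. Embryos of both genotypes are pooled in these values, and the difference between the 2 coefficients was not tested. Within controls the anterior coefficient was 0.564 and within DKO embryos -0.835, beside 0.582 and 0.993 in the posterior.

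**Figure D5:**
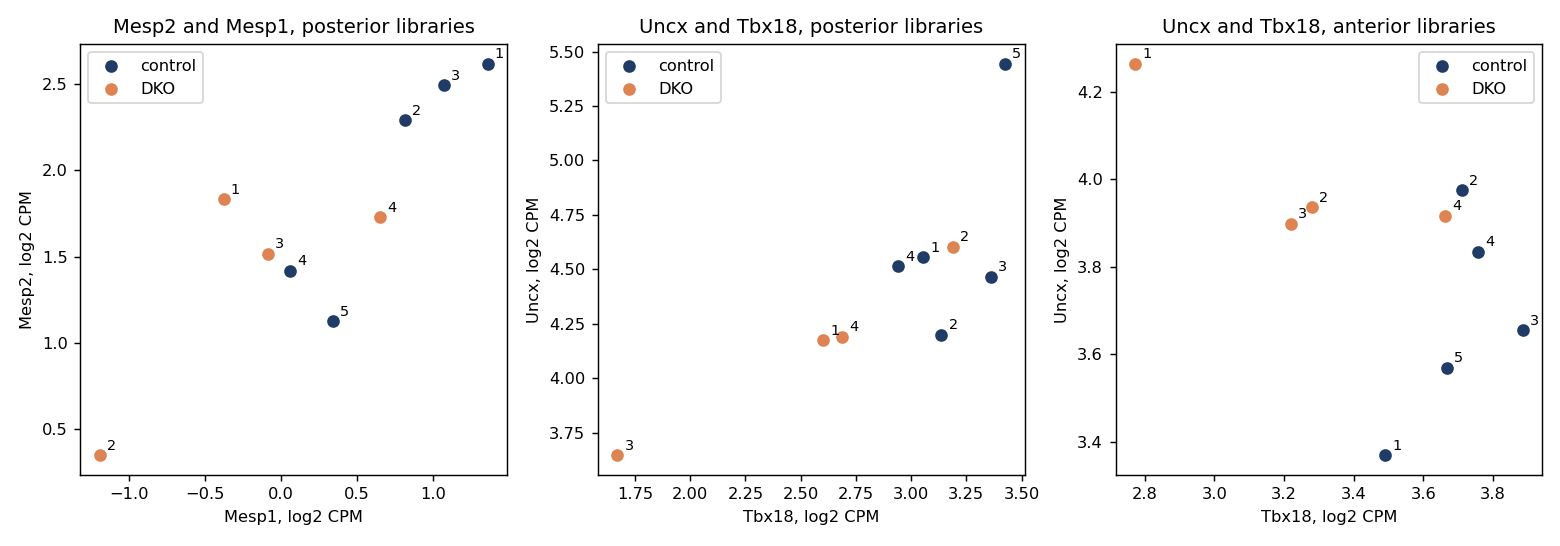
Log2 CPM of Mesp2 against Mesp1 and of Uncx against Tbx18 in posterior libraries, and of Uncx against Tbx18 in anterior libraries, with 1 point per embryo coloured by genotype. The posterior panels slope upward (r = 0.869 and 0.799) and the anterior panel downward (r = -0.579), though upward within its controls (r = 0.564).

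Spread between embryos of a group differed among the genes. The biological coefficient of variation estimated by edgeR was 22.8% for Uncx, 1.38 times the 16.5% that the trend gives for its abundance, and 6.65% of genes exceeded that ratio. Ripply2 (1.21 times the trend, exceeded by 9.47% of genes), Epha4 (1.19, 9.92%), Mesp2 (1.18, 10.1%), Tbx18 (1.14, 11.4%) and Mesp1 (1.05, 14.6%) also lay above it. Cer1 (0.993, exceeded by 17.6%), Efnb2 (0.869, 26.9%) and Ripply1 (0.700, 51.5%) lay below the trend, Ripply1 near the middle of all genes.

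Among 11808 protein-coding genes with a mean of at least 50 counts, those whose profile over the 18 libraries lay nearest, by the root mean square difference of centred log2 CPM, were named for each gene. Nearest to Mesp1 were Efna3 (0.596), Fgf18 and Naaa, and to Mesp2 Ppef2 (0.589), T and Efna3. Ripply1 lay nearest to Eps8l2 (0.33), Fmod and Ctsh, and Ripply2 to Kcnab3 (0.611), Fgf18 and Cyp26a1. For Cer1 they were Peli3 (0.518), T and Ifitm1. Tbx18 was closest to Fli1 (0.251), Npr1 and Meis1 (0.273), the last of these being one of the deleted genes. Uncx was closest to Pcdh8 (0.294), itself a somite polarity gene, B4galt6 and Amigo2. Epha4 had Plagl1 (0.174), Sox6 and Vwa5a, and Efnb2 had Lipa (0.0929), Ckap2 and Fkbp14. Over the 9 posterior libraries alone, none of the 3 nearest genes was shared for any of the 9, so the genes named here depend on which libraries are included. Region and number of libraries changed together in that comparison.

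The upstream genes were then counted. Of 8 presomitic mesoderm activators, 7 rose in the posterior of controls and none fell, where 12.1% of all genes rose and 13.3% fell. Msgn1 and Tbx6 entered through the posterior alone, and of the other 6 activators 5 rose (median 2.46, beside -0.01 for all genes). Msgn1, a bHLH regulator, went from 0.0155 ± 0.0346 to 17.9 ± 6.87 CPM, Tbx6, the activator of Mesp2, from 0.354 ± 0.125 to 32.6 ± 4.15, T from 4.14 ± 0.668 to 95.4 ± 22.5, and Cyp26a1, which degrades retinoic acid, from 3.43 ± 1.33 to 42.9 ± 5.41 CPM (SD, n = 5). None of the 6 tested in the anterior and none of the 8 tested in the posterior was called in the DKO comparisons. In the posterior all 8 had a positive sign, with a median of 0.16, beside 0.01 for all genes. Of the 6 tested in the anterior, 3 had a positive sign, with a median of 0.008. The share of all genes with a positive sign was not computed. Posterior DKO means were 20.2 ± 6.81 CPM for Msgn1 and 38.2 ± 7.38 CPM for Tbx6 (SD, n = 4). The mean levels of Tbx6 and Msgn1 in posterior DKO libraries were thus above those of controls and the means of Mesp1 and Mesp2 below, none of them past the test.

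Of 14 Notch and clock genes, 5 rose and 2 fell in the posterior of controls (median 0.10), against the same 12.1% and 13.3% of all genes. Without Hes7, which entered through the posterior alone, 4 of 13 rose and 2 fell (median 0.04). Hes7, the oscillating repressor, went from 0.275 ± 0.128 to 15.9 ± 3.78 CPM, and the ligands Dll3 and Dll1 rose by 1.87 and 1.05 on the log2 scale. Hes5, a Notch target strong in the neural tube, fell by 1.57. Hes5 was also the only gene of the 7 pathway lists called in a DKO comparison. It rose in the anterior from 51.8 ± 4.002 to 82.0 ± 12.0 CPM (0.66 log2, SE 0.0928, adjusted p = 0.0455), while the other 12 tested genes of the list were not called. Leaving out any of 7 of the 9 embryos lost that call (adjusted p 0.0514 to 0.162), namely every control and DKO 1 or 3. The neural tube marker sums, 397 to 518 CPM in anterior controls and 509 to 569 in anterior DKO libraries, stand beside it, and their part was not tested.

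Of 6 other genes of rostral or caudal somite compartments, 4 rose and 1 fell toward the posterior of controls (median 0.71), among them Hey2 (1.14), Hey1 (0.78) and Heyl (-0.95). Dll1 and Lfng belong to both this list and the Notch list. Tle4 rose (0.86) and Tle1 fell (-0.34) among the 4 Tle corepressors that Ripply proteins recruit (median 0.00). Of 12 genes of somite epithelium 7 rose and 4 fell (median 0.39), with Fn1, the fibronectin of the intersomitic matrix, at 1.27, Foxc2 at 1.15, Tcf15 at 1.02 and Meox2 at -0.90. Of 5 sclerotome genes 3 fell, Nkx3-2 (-1.42), Pax1 (-0.70) and Sox9 (-0.42), and none rose (median -0.42). Each of these counts stands beside 12.1% of all 15294 genes that rose and 13.3% that fell.

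The 18 other Eph receptors and ephrins split nearly evenly, with 7 higher and 8 lower in the posterior of controls (median 0.13), where 25.4% of all genes were called. Efna3 (3.26), Epha5 (2.84), Epha1 (2.67) and Epha2 (2.18) had the largest differences. In DKO embryos none of the 18 was called in either region, and the medians were -0.01 in the anterior and 0.06 in the posterior. The 5 sclerotome genes all had a negative sign in DKO embryos in both regions (medians -0.43 and -0.30, beside 0.00 and 0.01 for all genes), and none was called. The share of all genes with a negative sign was not computed, and the shared sign was not tested.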

How the data were processed

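RNA-seq of poly(A) RNA, with single-end reads of 61 bases, was measured in 18 libraries from 9 embryos. Per the labels' protocols the pieces were dissected by hand, and per the submitters' processing notes CASAVA, cutadapt and RSEM were used with GRCm38; aligner, versions and strand setting are not given in the sources used here. The deposited values were RSEM expected counts per gene, which were rounded to whole numbers. Estimated counts of Mesp1, Mesp2, Ripply1, Ripply2 and Efnb2 were whole (within 0.001) in all 18 libraries, those of Cer1 in 15, of Epha4 in 10, of Uncx in 2 and of Tbx18 in none, so that some reads of these 4 genes were shared out. GENCODE M21 named 53274 of 53465 genes, and promoter windows came from RefSeq, which held all 9 genes.

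Groups followed the genotype and region labels. Libraries of 1 embryo were matched by genotype, gender and somite labels. Genes were filtered with filterByExpr (at least 10 counts, total 15) and tested with edgeR 4.0.16 (R 4.3.3; TMM, quasi-likelihood, Benjamini-Hochberg, threshold 0.05), fitting only the libraries compared. A prior count of 2 entered the log2 CPM values. The tests were checked on simulated data. Simulated counts were drawn independently for each library, so the check did not cover the pairing of libraries by embryo. Alternatives were RLE factors, DESeq2 1.42.0, limma 3.58.1 (voom), no filter or a mean of at least 50 counts, all 18 libraries in one fit, gender and somite number as covariates, the embryo as a replicate block and each embryo left out. Same-embryo libraries deviated together (correlations of 0.256 to 0.570 over 16428 genes, each of 9 pairs best with its own; -0.283 to 0.0916 between embryos of a genotype), so the embryo pairs the regions. Nothing says that embryos came from separate litters, so p-values measure the spread between these embryos. Depth was 12.7 to 38.2 megacounts, and intervals on counts cover counting error only.

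The 9 genes and all lists were chosen with earlier results of these data known. The other genes named are the 3 with the nearest profile to each, list genes called in a DKO comparison, and up to 4 per list with the largest called difference between regions in controls.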

Additional observations from a re-analysis of the deposited data

Results flagged for a closer look

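Of the single libraries, 2 stood apart from their group by Dixon's ratio, the gap to the nearest library over the range of the group, and both concern Uncx. In the posterior controls, control 5 had 43.5 CPM of Uncx, with the next highest control at 23.4 CPM (ratio 0.796, above the 95% critical value for 5 libraries). In the anterior DKO group, DKO 1 had 19.1 CPM, with the next at 15.2 CPM (ratio 0.908, above that for 4 libraries). In all, 33 groups of 4 or 5 libraries were looked at and 2 stood out, while chance alone is expected to pick about 1 in 20 such groups.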

How the results depend on the processing

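Under no alternative run was any tested one of the 9 genes called in a DKO comparison or in the interaction. Mesp1, Mesp2, Ripply2 and Cer1 were too low to test in the anterior DKO comparison under the filter of the reported fit. Of 539 alternative values of the genes' log2 differences, 502 kept direction and side of the threshold, 11 lost a call, none gained one and 26 reversed. The reversed values were near 0 or rested on few anterior counts. Leaving out 1 embryo at a time moved the anterior DKO difference of Efnb2 from -0.047 to 0.0095. It moved the posterior DKO differences of Ripply1 from -0.15 to 0.24 (and -0.023 with covariates), Ripply2 from -0.14 to 0.29 and Efnb2 from -0.080 to 0.081, and with no reversal Tbx18 from -0.81 to -0.34 and Mesp2 from -0.84 to -0.42. In the interaction Cer1 ran from -0.60 to 0.93 (0.047 with DESeq2, 0.14 with limma-voom), Efnb2 from -0.053 to 0.11, Tbx18 from -0.36 to 0.083 and, with no reversal, Uncx from -1.01 to -0.54, and the DKO slope of Uncx ran from -0.011 to 0.29. Over all genes, the anterior DKO comparison called 6, but 296 with DESeq2, 29 with limma-voom, 83 with no filter on low counts, 19 with all 18 libraries in one fit, 88 with gender label and somite number as covariates, and 1 to 57 with 1 embryo left out. The posterior comparison called 2, but 161 with DESeq2, 14 with no filter, 1 with a mean of at least 50 counts, 51 with all 18 libraries and 2 to 24 with 1 embryo left out. The interaction called 10 with DESeq2 and 0 to 1 with 1 embryo left out. The causes were not tested. Between regions of DKO embryos 2913 genes were called, and 1728 to 2550 with 1 embryo left out (fewer samples). With a mean of at least 50 counts 1 of the 9 genes was called there, because fewer of them were tested. No pair of genes passed the adjusted correlation test, and 0 to 1 did with 1 embryo left out. With the embryo as a replicate block, 5136 genes were called between regions in controls (3884 without), 3004 in DKO embryos and 0 in the interaction, and no call on the 9 genes changed. Depth limits Mesp1, Mesp2, Ripply2 and Cer1 in the anterior, where each library held at most 5 counts.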
